A study of Mus musculus with 10 samples.

Results

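The mitosis genes described here are 37 genes whose products build the spindle, condense and segregate the chromosomes, and divide the cell. They were selected by gene symbol, and all 37 were among the 15899 genes of the deposited RIP-seq matrix. RIP-seq sequences the RNA that an antibody pulls down with a protein (immunoprecipitation, IP). Neurospheres, floating aggregates of neural stem and progenitor cells, were grown with EGF and FGF from the subependymal zone of 10-week-old mice. In the Mex3aFLAG/FLAG cultures (FLAG), the endogenous RNA-binding protein MEX3A carried a FLAG tag, so that its own promoter drove it, and the Mex3a+/+ cultures (WT) carried no tag and gave the nonspecific background of the anti-FLAG antibody. The IP was done on crosslinked cells in 2 FLAG and 2 WT libraries, and on native cells, without crosslinking, in 3 FLAG and 3 WT libraries. The study asked which RNAs MEX3A binds. A ratio of FLAG to WT holds both binding and unequal RNA amounts in the cultures, and in bulk samples fewer cycling cells and less RNA per cell cannot be told apart. Input RNA was not analysed here.

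Entry into mitosis is driven by the kinase Cdk1 with its A- and B-type cyclins, and Aurora and Polo-like kinases then act on centrosomes, chromosomes and kinetochores. Condensin and topoisomerase compact the chromosomes, kinesin motors shape the spindle, and the central spindle places the cleavage furrow. Most of these genes are transcribed together in late cell cycle phases, and their RNAs are hallmarks of the activated stem cells and progenitors of the subependymal zone.

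The values are deposited log2 values with nearly the same distribution in all 10 libraries, so the depth of each library is unknown and only levels relative to other genes can be read. Genes at a library's lowest value numbered 329 in FLAG native replicate 1 and 178 in FLAG native replicate 3, against at most 3 in the others, and 0 members lay at the lowest value in any library. The Mex3a RNA itself had log2 values of 3.92 to 4.16 in FLAG crosslinked, 2.75 to 3.03 in WT crosslinked, 4.03 to 6.10 in FLAG native and 2.89 to 3.52 in WT native libraries. All 8 neural stem and progenitor markers were in the matrix, with a summed log2 level of 10.98 to 11.51, and in FLAG against WT their median log2 difference was 0.62 crosslinked, 0.98 native and 0.87 over all libraries, with 0 of the 8 called. Of 5 neuronal markers 3 were in the matrix, with summed log2 levels of 3.55 to 4.41 in FLAG and 4.84 to 5.31 in WT libraries, WT being higher in both protocols, and Dcx and Tubb3 were not. Their median log2 difference was -0.64 over all libraries, and 1 of the 3 was called lower (limma). The astrocyte marker Gfap and the oligodendrocyte markers Mbp, Mog and Mag were not in the matrix. The part of other cell types in the differences between FLAG and WT was not tested.

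RNA of every member was recovered in all 10 libraries, the untagged WT libraries included. Per kb of the longest annotated transcript, the mean log2 level of the members in the WT native libraries ran from 1.01 to 4.03 with a median of 2.46. Ckap5, which promotes microtubule growth, was highest at 4.03, followed by the spindle protein Ckap2 at 3.71, the chromosome periphery protein Mki67 at 3.60 and the DNA topoisomerase Top2a at 3.58. The lowest were Birc5 (survivin) at 1.01, Aurkb, the kinase of the chromosomal passenger complex, at 1.19 and Ccnb1 at 1.20. The median SD of a member over the 3 WT native libraries was 0.17 on the log2 scale, so that the neighbours Ckap2, Mki67 and Top2a, or Aurkb and Ccnb1, did not differ beyond their spread. This order depends on the length used. Per kb of the whole gene body, introns included, Mki67 was highest at 2.20, followed by Top2a at 0.99, Ckap2 at 0.94 and Ccna2 at 0.86, Ckap5 was in place 10 at 0.22, and Aurka was lowest at -1.46. In the FLAG crosslinked, WT crosslinked and FLAG native libraries the Ncapd2 locus, which encodes a condensin subunit, had the highest level per kb. Its levels there were 4.80, 4.47 and 3.95. That place rests on the small RNA Scarna10 inside the gene. With the value of Scarna10 taken off, Ncapd2 was at 2.84, 2.77 and 2.92 per kb, below 12, 11 and 7 other members.

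**Figure D1:**
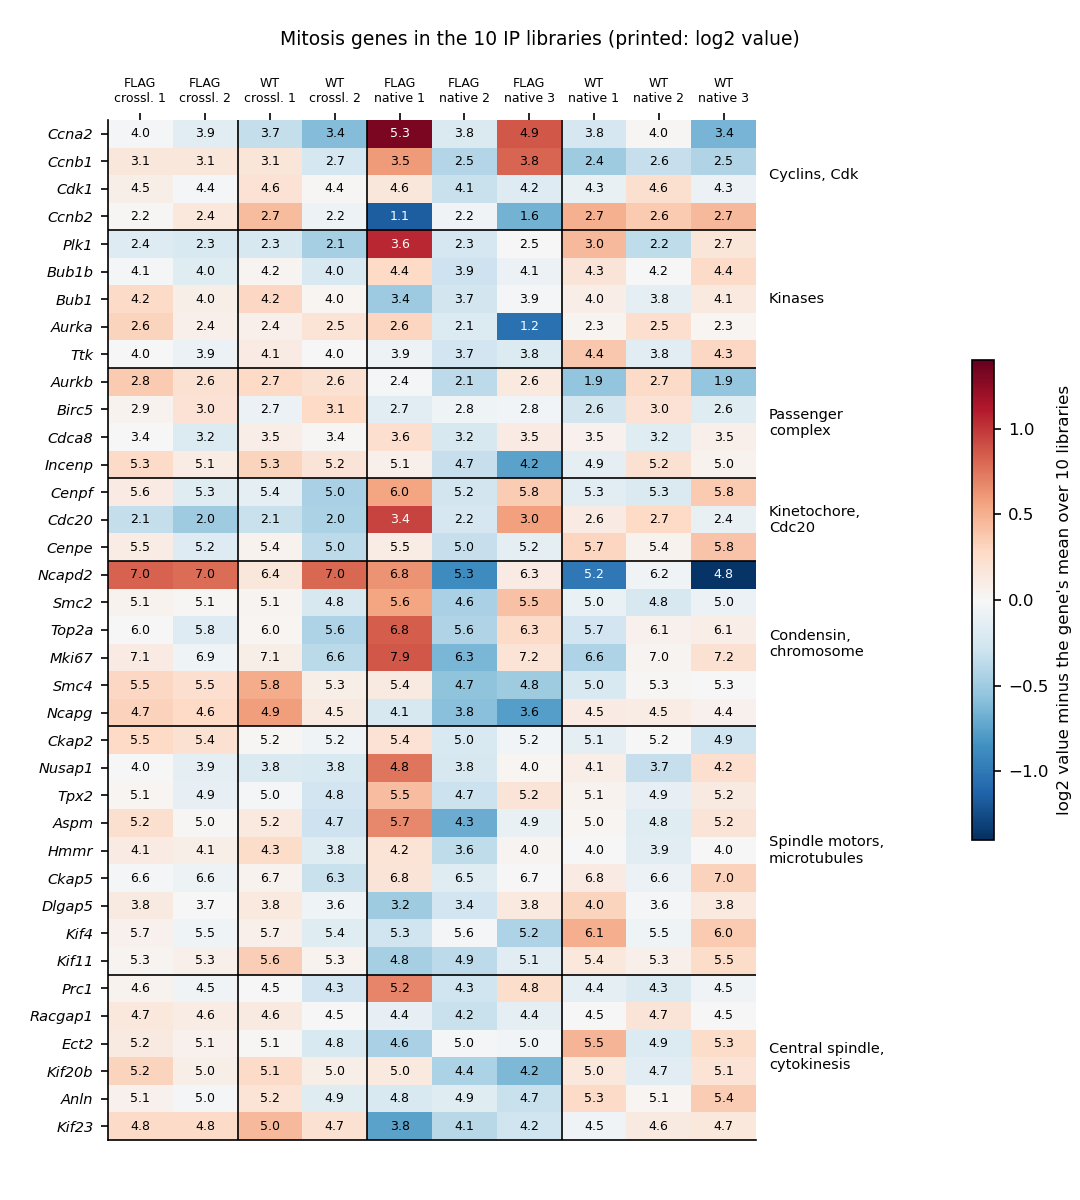
Log2 values of the 37 mitosis genes (rows, grouped by role) in the 10 libraries (columns). The printed digits are the log2 values, and the colour is the value minus the gene's mean over the 10 libraries on a linear log2 scale. FLAG native 1 and 3 hold strong deviations in both directions, with Ccna2 at 5.34 and 4.89 and Ccnb2 at 1.07 and 1.57, Ncapd2 is lowest in WT native 3 at 4.83, while the differences between the 2 FLAG crosslinked libraries had an SD of 0.10 over the members.

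FLAG was compared with WT on the log2 values with limma, with Benjamini-Hochberg adjustment over all 15899 genes. Calls required an adjusted p-value under 0.05 together with a change above 0.58, higher or lower, in log2 units. Of the 37 members, 0 were called higher and 0 lower in the crosslinked libraries, where 0% of all genes were called in each direction. In the native libraries 0 members were called, against 0% of all genes called higher and 0.107% called lower. With all libraries and the protocol as a covariate 0 members were called, against 0.264% of all genes called higher and 0.233% called lower. The smallest adjusted p-values of a member were 0.597, 0.245 and 0.155 in these 3 comparisons. Mex3a itself was not called in any of them either, at log2 fold changes of 1.15, 2.11 and 1.73. The paper, with DESeq2 and the same thresholds, counts Mex3a among the RNAs enriched in both of its IPs. A member that was not called here can therefore not be read as unbound.

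With crosslinking, the members lay close to the background IP. Their median log2 fold change was 0.05, from -0.15 to 0.38, and over all genes the median was -0.02. Of the members 25 lay above 0, where 46.3% of all genes did, and 0 lay more than 0.58 from 0, where 9.59% of all genes did. For 28 of the 37 members (75.7%) the whole 95% interval lay within 0.58 of 0, which held for 49.0% of all genes. In the native libraries the members spread more widely, from -1.06 to 0.95 with a median of -0.11, against -0.04 over all genes. Above 0 lay 16 members and 47.4% of all genes, and more than 0.58 from 0 lay 5 members and 32% of all genes. There the interval lay within 0.58 of 0 for 5 members (13.5%) and for 8.78% of all genes, so the native libraries bound the fold change of most members less tightly. Over all libraries the median was -0.04, from -0.68 to 0.72, with 17 members and 46.8% of all genes above 0 and 3 members and 19.3% of all genes more than 0.58 from 0, and the interval lay within 0.58 of 0 for 20 members (54.1%) and for 32.3% of all genes. At an unadjusted p-value under 0.05 (limma), 2 members were higher and 0 lower in the crosslinked libraries, against 5.48% and 2.22% of all genes. In the native libraries 1 member was higher and 6 were lower, against 8.38% and 8.37% of all genes. Over all libraries 2 were higher and 4 lower, or 5.41% and 10.8% of the members, against 11.2% and 9.85% of all genes.

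**Figure D2:**
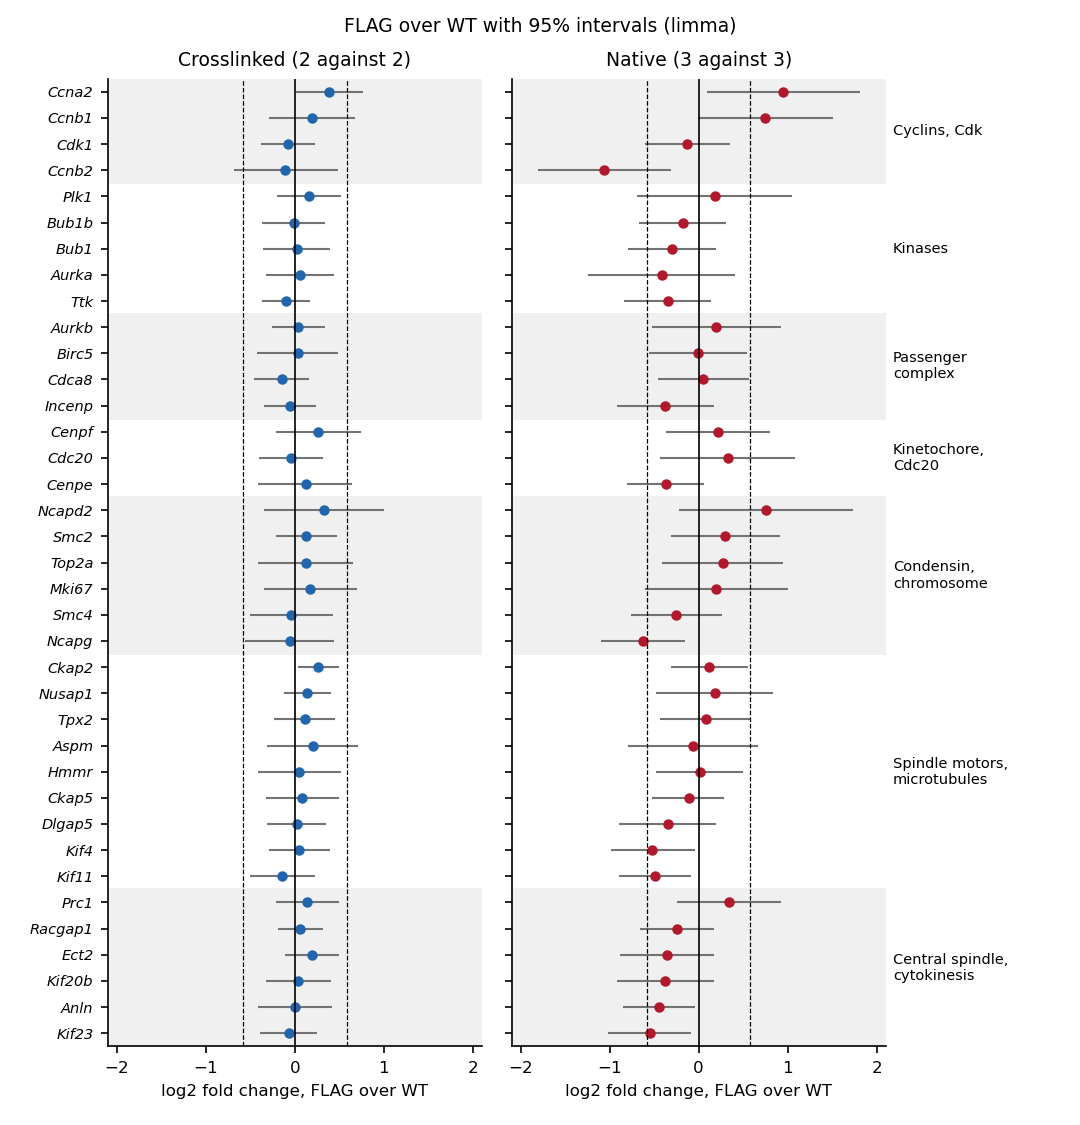
Log2 fold change of FLAG over WT for the 37 members (points) with 95% intervals from limma (lines), in the crosslinked (left) and native (right) libraries. Dashed lines mark 0.58 on each side of 0. In the crosslinked libraries the points ran from -0.15 to 0.38, and in the native libraries from -1.06 (Ccnb2) to 0.95 (Ccna2).

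The mitotic cyclins stood at both ends of the list. Ccna2, the cyclin of S phase and mitotic entry (ENSMUSG00000027715, GRCm38 chromosome 3, 36564865 to 36572150, minus strand), had log2 values of 3.99 and 3.87 in FLAG and 3.69 and 3.41 in WT crosslinked libraries. In native libraries it was 5.34, 3.82 and 4.89 in FLAG and 3.79, 4.04 and 3.37 in WT. Both crosslinked FLAG values thus lay above both WT values, while in the native libraries replicates 1 and 3 of FLAG lay above every WT library and replicate 2 lay within the WT range. The log2 fold change was 0.38 (95% interval 0.01 to 0.76) crosslinked, 0.95 (0.09 to 1.81) native and 0.72 (0.13 to 1.32, adjusted p = 0.181, limma) over all libraries, the largest of the 37 members.

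Ccnb1, the B-type cyclin that activates Cdk1 at mitotic entry, followed the same libraries. Its log2 values were 3.09 and 3.09 in FLAG and 3.11 and 2.69 in WT crosslinked libraries, which overlapped. In native libraries they were 3.53, 2.53 and 3.75 in FLAG and 2.44, 2.61 and 2.51 in WT, with FLAG replicate 2 again inside the WT range. Over all libraries the log2 fold change was 0.53 (95% interval 0.01 to 1.04, adjusted p = 0.229, limma). Of the 75-nt windows of its transcript, 35.2% also occur in transcripts of other genes, all of them annotated copies or pseudogenes, so its reads cannot be assigned with certainty. For the other members this share was at most 4.89% (Cdc20).

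Ccnb2, the other B-type cyclin (chromosome 9, 70407692 to 70421547, minus strand), lay at the opposite end. Its log2 values were 2.24 and 2.38 in FLAG and 2.67 and 2.16 in WT crosslinked libraries. In native libraries they were 1.07, 2.18 and 1.57 in FLAG and 2.73, 2.59 and 2.68 in WT, so that every FLAG value was below every WT value, with replicate 2 nearest to WT. The log2 fold change was -0.11 (95% interval -0.69 to 0.48) crosslinked, -1.06 (-1.81 to -0.31) native and -0.68 (-1.24 to -0.12, adjusted p = 0.183, limma) over all libraries. Cdk1, the kinase that these cyclins activate, had -0.11 (-0.38 to 0.17) over all libraries.

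**Figure D3:**
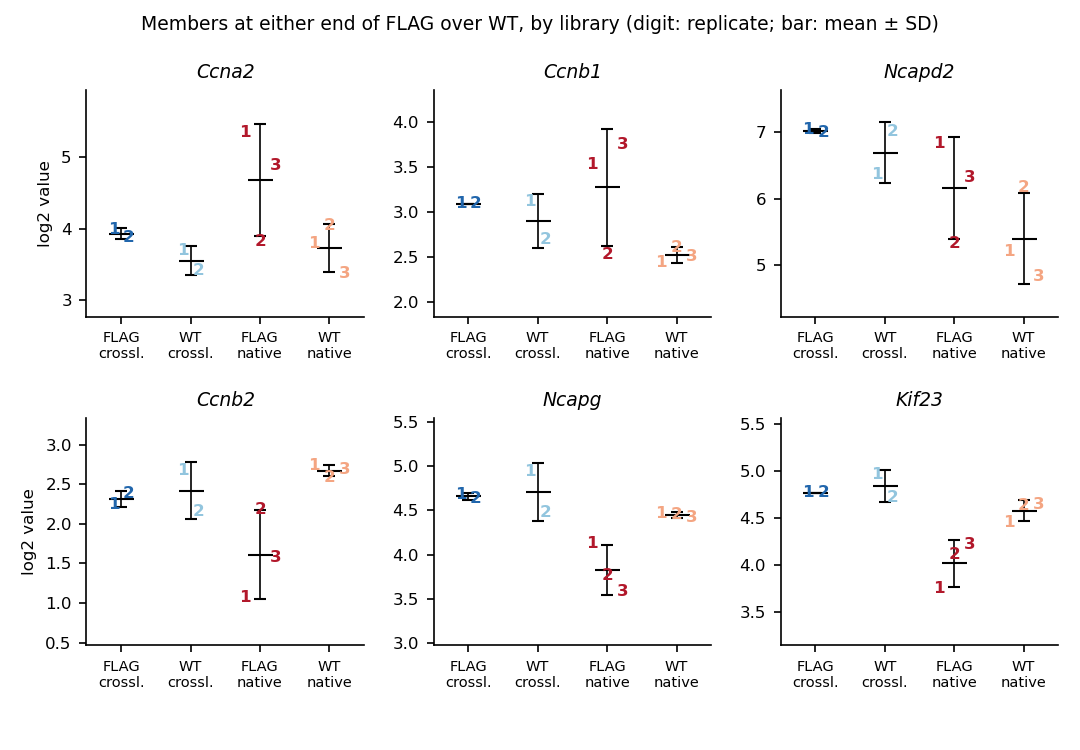
Log2 values of the 3 members with the highest (top row, Ccna2, Ccnb1, Ncapd2) and the 3 with the lowest (bottom row, Ccnb2, Ncapg, Kif23) FLAG over WT. Each digit is the library of that replicate number, and the black bars are the mean ± SD of the group (n = 2 crosslinked, n = 3 native). In the top row FLAG native 2 lies at WT levels while FLAG native 1 and 3 are high, and in the bottom row the 3 FLAG native libraries lie below the 3 WT native libraries.

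In the native comparison, whether these cyclins were called depended on the weight of FLAG native replicate 2 and other deviating libraries. Without that library, Ccna2 (log2 fold change 1.38, adjusted p = 0.0130), Ccnb1 (1.12, adjusted p = 0.0168) and Smc2 (0.61, adjusted p = 0.0290) were called higher and Ccnb2 (-1.35, adjusted p = 0.0201) lower in the native libraries by limma. The share of all genes called in that fit was 9.12% higher and 10.8% lower, against 3 and 1 of the 37 members. With array weights, which count a library less the more it deviates, the native comparison called Ccna2 (1.18, adjusted p = 0.0180), Ncapd2 (1.12, adjusted p = 0.0327) and Ccnb1 (1.05, adjusted p = 0.0195) higher and Ccnb2 (-1.17, adjusted p = 0.0173), Ncapg (-0.72, adjusted p = 0.0229) and Kif4 (-0.74, adjusted p = 0.0208) lower, with 10.4% of all genes called higher and 12.1% lower by limma. Over all libraries array weights called 0 members, against 6.95% of all genes called higher and 6.06% lower. There FLAG native replicates 1 and 3 were the libraries counted least, with weights of 0.12 and 0.16, against 1.27 for FLAG native replicate 2. FLAG crosslinked replicate 2 and WT crosslinked replicate 1 counted most, at 10.19 and 9.02. In that fit 15 members passed an adjusted p-value of 0.05, as did 34.6% of all genes, but none of them by more than 0.58, and 12 members changed sign. The log2 fold change fell from 0.72 to 0.24 for Ccna2 and from 0.53 to 0.05 for Ccnb1, and that of Ccnb2 went from -0.68 to -0.33. Leaving out any single library in the comparison of all libraries called 0 members, against 3.25% of all genes higher and 1.17% lower without FLAG native replicate 2.

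The mitotic kinases were mostly on the lower side in the native libraries, 4 of 5 below 0, where 47.4% of all genes lay above 0. The native 95% interval of each of the 5 covered 0. Plk1 (Polo-like kinase) had a log2 fold change of 0.17 over all libraries (95% interval -0.38 to 0.72). Aurka, which matures the centrosomes, had -0.22 (-0.74 to 0.30), with native log2 values of 2.58, 2.09 and 1.24 in FLAG and 2.32, 2.52 and 2.31 in WT, which overlapped, and the checkpoint kinases Bub1, Bub1b and Ttk had -0.17, -0.11 and -0.25. With crosslinking all 5 kinases had intervals within 0.58 of 0, and so did all 4 members of the chromosomal passenger complex, which corrects kinetochore attachments and later drives cytokinesis. Of that complex, Aurkb had 0.13, Birc5 0.00, Cdca8 (borealin) -0.03 and the scaffold Incenp -0.25 over all libraries, and 3 of these 4 intervals lay within 0.58 of 0.

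The kinetochore proteins Cenpf and Cenpe had log2 fold changes of 0.24 (95% interval -0.15 to 0.62) and -0.17 (-0.50 to 0.15) over all libraries. Cdc20, the activator of the anaphase-promoting complex (APC/C), had 0.18 (-0.30 to 0.66). Its FLAG native values of 3.41, 2.23 and 3.03 overlapped with the WT native values of 2.58, 2.74 and 2.36.

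The condensin subunits, which fold mitotic chromosomes, did not share a direction. Ncapd2 (chromosome 6, 125168007 to 125191701, minus strand) had log2 values of 7.03 and 6.99 in FLAG and 6.36 and 7.01 in WT crosslinked libraries. In native libraries it was 6.83, 5.33 and 6.32 in FLAG and 5.20, 6.16 and 4.83 in WT, so that the groups overlapped in both protocols. Over all libraries it had a log2 fold change of 0.59 (95% interval -0.10 to 1.28, adjusted p = 0.289, limma).

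Ncapg, another subunit of the same complex (chromosome 5, 45669919 to 45700546, plus strand), had 4.68 and 4.63 in FLAG and 4.94 and 4.48 in WT crosslinked libraries. In native libraries it was 4.13, 3.77 and 3.58 in FLAG and 4.47, 4.46 and 4.42 in WT, every FLAG value below every WT value. Its log2 fold change was -0.62 (95% interval -1.10 to -0.15) native and -0.40 (-0.75 to -0.05, adjusted p = 0.201, limma) over all libraries. The shared ATPase subunits Smc2 and Smc4 had 0.23 (-0.16 to 0.62) and -0.17 (-0.50 to 0.17), and Top2a and Mki67 had 0.21 and 0.19. Smc2 had native log2 values of 5.62, 4.62 and 5.48 in FLAG and 4.98, 4.85 and 4.99 in WT, with FLAG replicates 1 and 3 above and replicate 2 below all WT libraries.

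The Ncapd2 values carry a small RNA. Scarna10, a small Cajal body RNA that guides the modification of spliceosomal RNA, is annotated on the same strand inside Ncapd2 (chromosome 6, 125186359 to 125186683). Its value was 15.4% to 75.4% of that of Ncapd2 on the linear scale, and over the 10 libraries both moved together (Spearman's rho 0.952, a description over libraries that share their normalization). With the linear value of Scarna10 taken off, the mean log2 value of Ncapd2 was 5.05 ± 0.11 in FLAG and 4.98 ± 0.12 in WT crosslinked libraries (SD, n = 2), a difference of 0.07. In native libraries it was 5.13 ± 0.87 and 4.56 ± 0.37 (SD, n = 3), a difference of 0.57.

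Such sharing was a property of the whole matrix. For 1258 pairs in which a gene lies wholly within an intron of another gene on the same strand, the host's value was at or above that of the inner gene (tolerance 0.05) in 12576 of 12580 values, and for 871 pairs on opposite strands in 8710 of 8710. Of the members, 21 overlap another annotated gene and 8 overlap one that is in the matrix. Besides Ncapd2 these were Cdc20 with Elovl1, Ncapg with Lcorl, Nusap1 with Oip5, Ccna2 with Exosc9, Cdca8 with 9930104L06Rik, Kif4 with Pdzd11 and Prc1 with Rccd1, all on opposite strands. Over the 10 libraries Lcorl had a Spearman's rho of 0.867 with Ncapg and a log2 fold change of -0.47 native and -0.29 over all libraries. Elovl1 had a rho of 0.927 with Cdc20 and 0.55 native, and Exosc9 a rho of 0.733 with Ccna2 and 0.29 native. Other partners followed their member less or not at all. The rho was 0.309 for 9930104L06Rik with Cdca8, 0.103 for Oip5 with Nusap1 and -0.358 for Pdzd11 with Kif4. The paper names a stranded library kit, but whether the counting used strand is not given. Counted without strand, reads of such partners cannot be told apart where the genes overlap. The value of a member is therefore read here as that of its locus.

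Of the spindle motors and microtubule proteins, Kif11, the kinesin that pushes the spindle poles apart, had the smallest adjusted p-value of any member. Its native log2 values were 4.80, 4.90 and 5.12 in FLAG and 5.42, 5.34 and 5.53 in WT, without overlap. The log2 fold change was -0.14 (95% interval -0.50 to 0.22) crosslinked, -0.49 (-0.89 to -0.09) native and -0.35 (-0.61 to -0.09, adjusted p = 0.155, limma) over all libraries. The chromosome-arm kinesin Kif4 had -0.52 (-0.99 to -0.04) in the native and 0.05 (-0.29 to 0.39) in the crosslinked libraries. Its native log2 values were 5.32, 5.58 and 5.16 in FLAG and 6.11, 5.54 and 5.96 in WT, where FLAG replicate 2 overlapped with WT replicate 2.

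Ckap2 was above WT in both crosslinked FLAG libraries, with log2 values of 5.50 and 5.43 against 5.24 and 5.17 and a log2 fold change of 0.26 (95% interval 0.03 to 0.49, adjusted p = 0.597, limma). The remaining spindle genes Tpx2, Nusap1, Hmmr, Dlgap5, Aspm and Ckap5 had log2 fold changes from -0.20 to 0.17 over all libraries. Of the 9 genes of this role, 7 had intervals within 0.58 of 0.

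The central spindle and cytokinesis genes were on the lower side in the native libraries. Of these 6 genes, 5 had a log2 fold change below 0, with a median of -0.37, where 47.4% of all genes lay above 0. None of the 6 was called. Kif23, the kinesin of centralspindlin (chromosome 9, 61915905 to 61946774, minus strand), had 4.77 and 4.77 in FLAG and 4.96 and 4.72 in WT crosslinked libraries. In native libraries it was 3.75, 4.11 and 4.22 in FLAG and 4.45, 4.63 and 4.65 in WT, without overlap. Its log2 fold change was -0.55 (95% interval -1.02 to -0.09) native and -0.36 (-0.67 to -0.05, adjusted p = 0.194, limma) over all libraries. Its partner Racgap1 had -0.12 (-0.36 to 0.12), the RhoA activator Ect2 -0.14 (-0.51 to 0.23), the furrow scaffold Anln -0.27 (-0.55 to 0.01) and the kinesin Kif20b -0.21 (-0.58 to 0.15). Prc1, which bundles the central spindle microtubules, was the exception at 0.26 (-0.11 to 0.63). Prc1 overlaps Rccd1 on the opposite strand, which had the same log2 fold change of 0.26 and a Spearman's rho of 0.976 with Prc1 over the 10 libraries, so the values of these genes cannot be told apart.

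Counted by whether the libraries separate, 5 members (13.5%) lay higher in every crosslinked FLAG library than in every WT library, which held for 19.1% of all genes. These were Ccna2, Ckap2, Ect2, Nusap1 and Plk1. Cdca8 alone (2.70%) lay lower in both, against 19.9% of all genes. These counts rested on single libraries. Without WT crosslinked replicate 1, 27 members lay higher against 34.6% of all genes, and without FLAG crosslinked replicate 2, 17 did against 31.7%. Without WT crosslinked replicate 2, 19 lay lower against 40.2% of all genes, and without FLAG crosslinked replicate 1, 7 did against 35.2%. In the native libraries 0 members lay higher without overlap, against 8.62% of all genes, and 6 (16.2%) lay lower, against 10.8%: Anln, Ccnb2, Kif11, Kif23, Ncapg and Racgap1. Without FLAG native replicate 2, 10 lay higher against 25.1% of all genes, and without WT native replicate 2, 5 did against 19.5%. Without FLAG native replicate 1, 14 lay lower against 14.3% of all genes, and without WT native replicate 2, 12 did against 22.3%. With both protocols together 0 members were separated in either direction, against 4.84% of all genes higher and 4.47% lower.

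In some libraries the members shifted together. Each library was set against WT of its protocol (a WT library against the remaining WT libraries). The median member differed by 0.25 between the 2 WT crosslinked libraries, with 34 of 37 members higher in replicate 1, and was at 0.11 and -0.01 in the 2 FLAG crosslinked libraries against the mean of WT. In the native protocol it was at 0.18, -0.33 and -0.09 in FLAG replicates 1, 2 and 3, and at 0.03, -0.13 and 0.12 in WT. The SD of the members' deviations was 0.67 in FLAG native replicate 1 and 0.55 in replicate 3, against 0.19 in replicate 2, whose members were nearly all lower (3 of 37 above the WT mean). Over all genes these SDs were 0.99, 0.93 and 0.54. The median over all genes lay between -0.06 (FLAG native replicate 3) and 0.05 (WT native replicate 3) in every library, so the shifts were those of the members.

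The difference between native and crosslinked FLAG over WT was tested with an interaction term in limma. It called 0 members, against 0% of all genes in each direction, 12 members lay above 0 (46.8% of all genes), and the smallest adjusted p-value of a member was 0.970. The largest difference was that of Ccnb2, at -0.95 (95% interval -1.96 to 0.06). Kif4 had -0.57 (-1.21 to 0.07), Ncapg -0.57 (-1.21 to 0.08) and Ccna2 0.57 (-0.65 to 1.79), so differences of this size between the protocols could be neither shown nor bounded near 0 with these libraries.

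The protocols were also compared within each genotype. Between the WT libraries, crosslinked over native, 0 members were called, against 0.0252% of all genes higher and 0.0126% lower. At an unadjusted p-value under 0.05 (limma) 1 was higher and 1 lower, against 5.38% and 5.29% of all genes, and 17 lay above 0, against 53.1%. Ncapd2 had the largest value at 1.29 (95% interval 0.28 to 2.29, adjusted p = 0.387, limma), where Scarna10 had 2.23, and with the value of Scarna10 taken off the difference of the means was 0.42. Cdc20 had the lowest value at -0.48 (-0.95 to -0.00). Between the FLAG libraries 0 members were called, against 0.0189% of all genes higher and 0.0503% lower. At an unadjusted p-value under 0.05 (limma) 2 were higher and 0 lower, against 3.21% and 5.94% of all genes. Above 0 lay 23 members (59.1% of all genes), more than 0.58 from 0 lay 6 (24.5%), and 1 had its interval within 0.58 of 0 (3.83%). There Ncapg had 0.83 (0.24 to 1.42, adjusted p = 0.402) and Kif23 0.75 (0.19 to 1.31, adjusted p = 0.432, limma). In FLAG, 14 members (37.8%) lay higher in every crosslinked than in every native library, against 17.9% of all genes, and in WT 5 did (13.5%), against 17.3%. The 14 included all of the members that lay without overlap below WT in the native IP, and both counts use the same 3 FLAG native libraries. The median over the members was 0.17 in FLAG and -0.01 in WT, against 0.11 and 0.02 over all genes.

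The members differ in how much of their gene body is exonic, from 5.43% in Kif4 to 56.0% in Ccna2, and native FLAG over WT moved with that share. Across the 37 members Spearman's rho was 0.54 (Pearson's r 0.63), and across 12270 protein-coding genes it was 0.44 (0.40). In the crosslinked libraries it was 0.22 in the members and 0.20 in all protein-coding genes. These correlations are descriptions across genes measured in the same libraries. The 18 members with the lowest exonic share (5.43% to 17.6%) had a median native log2 fold change of -0.35, with 4 of 18 above 0, and the 18 with the highest (21.1% to 56.0%) had 0.19, with 11 of 18 above 0. Ccna2 and Ccnb1 had 56.0% and 53.2%, and Ccnb2 had 11.0%. With each library's trend on exonic share removed (the native fit was added after seeing the data), 0 members were called in the native libraries and over all libraries. In the native libraries 5 members changed sign, and 5 in place of 7 had an unadjusted p-value under 0.05 (limma). The native log2 fold change was then 0.57 for Ccna2, 0.37 for Ccnb1, 0.65 for Ncapd2, -0.96 for Ccnb2, -0.71 for Ncapg and -0.67 for Kif23.

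**Figure D4:**
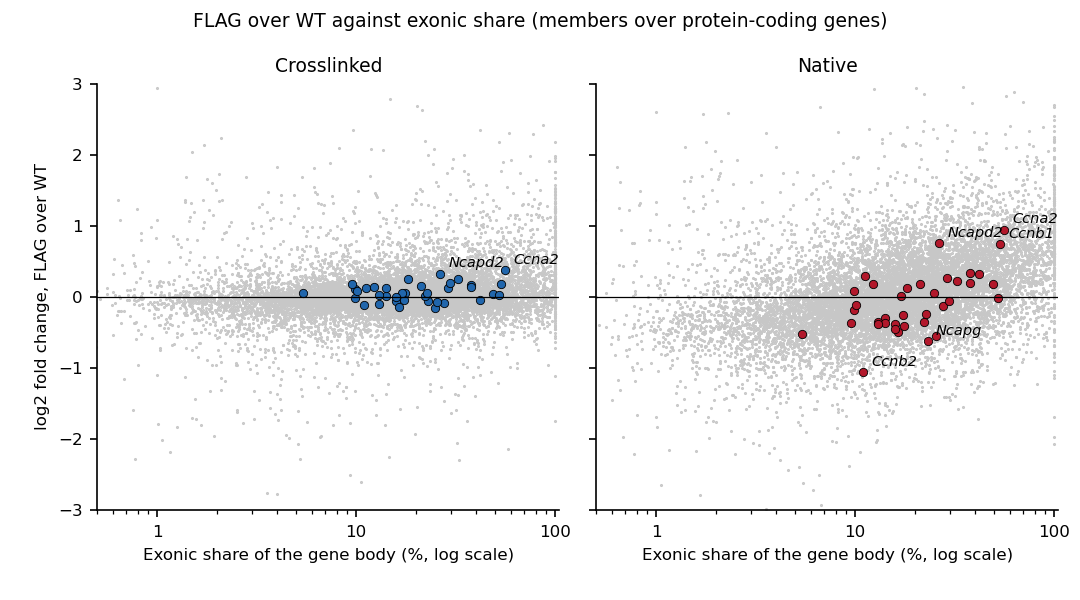
Log2 fold change of FLAG over WT against the exonic share of the gene body (log scale) for the 37 members (large points) and protein-coding genes (small grey points; values beyond 3 on either side are outside the axis), in the crosslinked (left) and native (right) libraries. In the native panel the members with a low share lie mostly below 0 and Ccna2 and Ccnb1 with over 50% lie above it, with a Spearman's rho of 0.54 against 0.22 in the crosslinked panel.

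The MEX-3 recognition element, the motif that the study's methods searched in bound RNAs, is written here as A, G or T, then G or T, then AG, then 0 to 8 free bases, then T, then A, C or T, then TA. It was searched on the transcript strand of the longest annotated 3′ UTR, and matches of different spacing may overlap. It was found in 29 of 37 members (78.4%, 95% Wilson interval 62.8% to 88.6%) and in 77.2% of 12110 protein-coding genes. The members hold 3.24 matches per kb against 2.80, in 3′ UTRs with a median of 571 nt against 1262 nt. The paper's results print another form of the motif, which ends in AT in place of TA. With that form the density was 2.57 per kb in the members and 2.61 in protein-coding genes, so that the higher density of the members was seen with the first form alone. In the first form, of the genes with the highest FLAG over WT, Ccna2 has 8, Ncapd2 1, Ccnb1 7 and Prc1 2, and of the lowest, Ccnb2 and Ncapg have 0, Kif23 2, Kif11 0 and Kif4 4. In the other form Ccna2 has 3, Ncapd2 0, Ccnb1 5 and Prc1 2, and Ccnb2 has 0, Ncapg 2, Kif23 1, Kif11 3 and Kif4 2. Smc2 and Hmmr, with 8 matches each in the first form, had log2 fold changes of 0.23 and 0.03 over all libraries. Over the members the number of matches had a Spearman's rho of 0.41 with crosslinked and 0.33 with native FLAG over WT, against 0.13 and 0.01 over all protein-coding genes. For matches per kb it was 0.34 and 0.18 in the members, and for the number of matches of the other form 0.26 and 0.12. Matches of the 2 cyclins and of Kif23 are shown for comparison, with both fixed parts of the motif in capitals (GRCm38, minus strand, 3′ UTR).
Ccna2 (chr3:36566117-36566146): cttctgaatGTAGatggTATAgccacagac
Ccna2 (chr3:36565872-36565901): gtggggaGTAGgaaaagatTTTAtaaaact
Ccna2 (chr3:36565704-36565733): cagatgttacaGTAGTTTAtggagacattt
Ccnb1 (chr13:100779516-100779545): gttgttgcttcTGAGTTTAggctaacggaa
Ccnb1 (chr13:100779425-100779454): gtatatatctGTAGccTATAtgtctatata
Ccnb1 (chr13:100779119-100779147): tatatcctgtATAGaTATAatcatgcata
Kif23 (chr9:61917417-61917445): aatgcactTTAGacataTTTAacaattaa
Kif23 (chr9:61917351-61917379): aaccattTTAGgaaggtaTTTAgagtttt

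What the members share most plainly lies in their promoters. Late cell cycle genes are bound by the DREAM and MuvB complexes at the cell cycle genes homology region (CHR), often near a box bound by the factor NF-Y. In windows of 300 bases around the RefSeq gene start (250 before, 50 after), 31 members had a match in the table, with 33 promoters. Smc4, Tpx2, Aurkb, Dlgap5, Ccna2 and Incenp were not matched. The CHR words TTTGAA or TTCGAA, on either strand, occurred in 29 of 33 promoters (87.9%) and in 19.2% of all 32851 promoters of this length. The NF-Y word CCAAT, on either strand, occurred in 87.9% against 37.4%, and both in 81.8% against 7.52%. Of 41 CHR matches, 30 lay from 100 bases before to 50 after the start, with a median position of -5, while the median of the 63 CCAAT matches was -65. Ect2 and Prc1 have overlapping windows, and their sites are counted in each window. Birc5, Ccnb1, Cenpe and Nusap1 had no CHR word in the window. At the high end of FLAG over WT, Ncapd2 carries the word, at position -123, while Ccna2 was not matched and Ccnb1 lacks it. At the low end Ccnb2, Ncapg and Kif23 carry it. The words of Ncapd2, Ccnb2, Ncapg, Kif23, Cdk1 and Plk1 are shown on the gene's strand, with the CHR in capitals (GRCm38.p6).
Ccnb2 (chr9:70421533-70421562, minus strand): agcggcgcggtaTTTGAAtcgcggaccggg
Cdk1 (chr10:69352910-69352939, minus strand): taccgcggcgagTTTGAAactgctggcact
Kif23 (chr9:61946780-61946809, minus strand): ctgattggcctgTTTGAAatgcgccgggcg
Ncapd2 (chr6:125191692-125191721, minus strand): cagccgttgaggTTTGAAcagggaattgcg
Ncapg (chr5:45669883-45669912, plus strand): ccgcgatagttgTTTGAAaactctggcgct
Plk1 (chr7:122159453-122159482, plus strand): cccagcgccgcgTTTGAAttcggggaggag

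**Figure D5:**
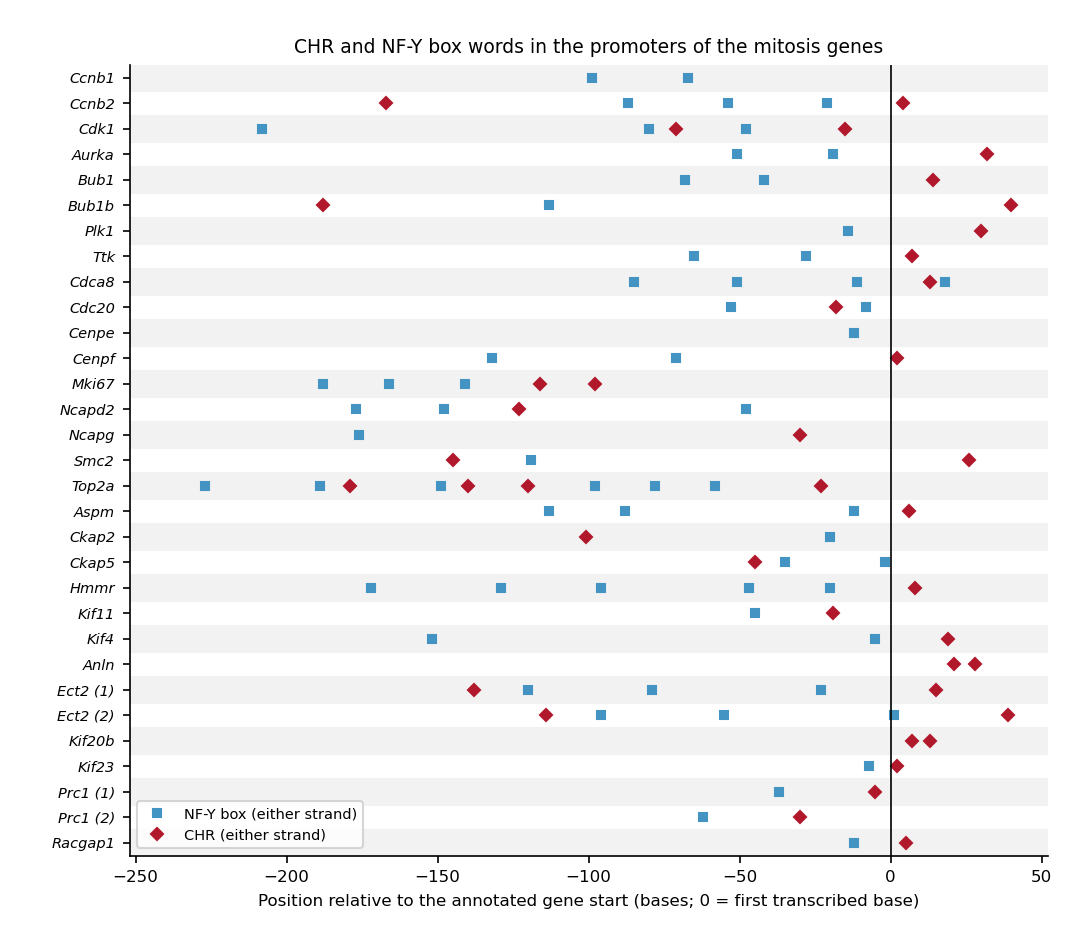
Positions of CHR words (diamonds) and NF-Y boxes (squares), on either strand, relative to the RefSeq gene start (0) in the promoter windows of the mitosis genes, ordered by role. Numbers in brackets separate promoters of the same gene, and Birc5 and Nusap1 are not drawn because their windows hold neither word. Of the 41 CHR words 30 lie from 100 bases before to 50 after the start, and the NF-Y boxes lie mostly upstream, with a median position of -65. Sites in the overlapping windows of Ect2 and Prc1 are counted in each window.

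The rest of the mitotic machinery was read from 6 further lists, of which 145 of 146 genes were in the matrix. Of these 145, 0 were called in the crosslinked, native or all-library comparison of FLAG over WT, and their medians were 0.00, -0.13 and -0.09. At an unadjusted p-value under 0.05 (limma), 6 of the 145 were higher and 14 lower over all libraries, against 11.2% and 9.85% of all genes. The spindle list held the largest values, with Tubb5, a beta-tubulin, at 0.93 (95% interval 0.35 to 1.51, adjusted p = 0.118) and Mapre1, the microtubule end-binding protein EB1, at 0.77 (0.22 to 1.31, adjusted p = 0.143). The centrosome list had a median of -0.20, with Cenpj at -0.51 (-0.86 to -0.15, adjusted p = 0.142) and Cep63 at -0.47 (-0.78 to -0.15, adjusted p = 0.136).

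The kinetochore and checkpoint list had a median of -0.36 in the native and 0.02 in the crosslinked libraries. Over all libraries its Zwint was at 0.43 (adjusted p = 0.191) and Cenpp at -0.45 (adjusted p = 0.196). Of the cohesin, separase and further condensin list, separase (Espl1) was at -0.36 and the condensin II subunit Ncapd3 at -0.27. The APC/C list had a median of -0.00, with Anapc10 at -0.32 and Cdc26 at 0.40. Among the regulators of mitotic entry and its transcription, the phosphatase Cdc25b was at 0.39 and the repressor E2f7 at -0.33, with adjusted p-values of 0.242 and 0.235 (limma).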

How the data were processed

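RNA from anti-FLAG IPs was measured by RIP-seq in 10 libraries of 4 groups. According to the methods and the submitters' processing notes, the authors trimmed reads with cutadapt and Trimmomatic, mapped them to GRCm38 with HISAT2 and counted them per gene with featureCounts. The authors' methods name DESeq2 for normalizing the counts, while the notes name limma. Which of these gave the deposited log2 values, used here as given, is not stated. The depth of each library and the counting settings for strand and gene body are not given in the sources used here. The columns were matched to the labels by name, and 0 columns were left out.

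FLAG and WT were compared with limma 3.58.1 (R 4.3.3; lmFit, eBayes with trend) on all 15899 genes, with Benjamini-Hochberg adjustment. The methods call the replicates biological, and p-values measure the spread between these libraries. The steps were tested on simulated data. Members, roles and lists were chosen with earlier results of these data known. All members could be named, values in every library were given for the 3 highest and 3 lowest over all libraries and for some others chosen after their values were seen, and of each further list the called genes or the 2 with the smallest p-value were named. Exonic share, 3′ UTRs and lengths came from GENCODE M21 (GRCm38), in which 36 of the 37 members had the same coordinates as in the matrix, and promoters from RefSeq (GRCm38.p6). Alternatives were pseudocounts, minimum means, normalizations, array weights, robust moderation, removed trends on GC content and length or exonic share, a replicate block, 1 fit of 4 groups, another motif form and 3′ UTR, and each library left out. The exonic share within each protocol and a crossed pairing were added after seeing the data. Python 3.11.15, pandas 2.3.3, numpy 2.4.6, scipy 1.17.1 and matplotlib 3.10.9 were used.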

Additional observations from a re-analysis of the deposited data

How the results depend on the processing

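No member was called in the crosslinked, all-library, interaction and WT protocol comparisons under any alternative run, with 0 to 0 calls when single libraries were left out, although 15 members passed the adjusted p-value alone over all libraries with array weights. In the crosslinked and interaction fits at most 0.0252% and 0.00629% of all genes were called under any alternative, so 0 calls of members there say nothing about stability. In the native comparison, array weights called 6 members, Ccna2, Ccnb1 and Ncapd2 higher and Ccnb2, Ncapg and Kif4 lower (10.4% and 12.1% of all genes), and leaving out a library called 0 to 4. In the FLAG protocol comparison, array weights called 1 member, Ncapg (0.93; 1.70% of all genes higher, 4.79% lower), and leaving out a library called 0 to 1, which was Ccna2 (-1.18) without FLAG native replicate 2 (1.27% and 4.82% of all genes). A minimum mean of 50 left 4 members and moved the median to 0.24 native, 0.20 over all libraries, 0.09 for the interaction and -0.08 in the FLAG protocol comparison; other medians stayed within 0.23 of the values given, the spread between libraries. Leaving out libraries gave medians of -0.07 to 0.17 crosslinked, -0.21 to -0.03 native, -0.11 to -0.00 over all libraries, -0.29 to -0.04 for the interaction, -0.15 to 0.07 in WT and 0.09 to 0.23 in FLAG. Members without overlap numbered 9 higher and 3 lower in the crosslinked libraries, and 1 lower in both protocols, after the GC and length trend was removed, against 21.6%, 17.4% and 3.98% of all genes. Without single libraries they were 5 to 27 higher and 2 to 19 lower crosslinked, 0 to 10 higher and 6 to 14 lower native, and 0 to 1 higher and 0 to 5 lower in both. The 27 (without WT crosslinked replicate 1), 19 (without WT crosslinked replicate 2), 10 (without FLAG native replicate 2), 14 (without FLAG native replicate 1) and 5 (without WT crosslinked replicate 2) stood against 34.6%, 40.2%, 25.1%, 14.3% and 8.62% of all genes. Over all libraries, Ccna2, Ncapd2, Ccnb1, Ccnb2, Ncapg, Kif23 and Kif11 kept their direction under every alternative in which they were fitted. They were picked as members at either end of that comparison, and the alternatives refit the same libraries, so a kept direction says little. Array weights lowered Ccna2 to 0.24, Ccnb1 to 0.05 and Ccnb2 to -0.33, and a pseudocount of 8 put Ccnb1 at 0.27 and Ccnb2 at -0.24. Replicate numbers showed no pairing of FLAG with WT: deviations of same-numbered libraries correlated at -0.27 crosslinked and at -0.15, -0.43 and -0.17 native. The deviations within a crosslinked group of 2 mirror each other, and groups this small cannot exclude a pairing. Between the protocols of a genotype they correlated at 0.30 and 0.39 in WT and 0.18 and 0.15 in FLAG, over 2 pairs each, so that these libraries may not be independent. With the replicate block 0 members were called in every comparison it was fitted for. With the crossed pairing, added after seeing the data, 0 members were called in the crosslinked libraries. The cause of these changes was not tested, and with unknown depth the counting error of single values could not be given.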
